A study of Mus musculus with 6 samples.

Results

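The frizzled receptors and their Wnt co-receptors were examined in the gastrocnemius, a fast calf muscle, of Nogo-/- and Nogo+/+ mice. The set comprised 10 named genes: the frizzled receptors Fzd1, Fzd4, Fzd5, Fzd7, Fzd8 and Fzd9, the co-receptors Lrp5 and Lrp6, the ligand Wnt5a and the target gene Axin2. These genes were selected on their FPKM in the same comparison of Nogo-/- with Nogo+/+ muscles, including the opposite positions of Fzd9 and Fzd4. The difference between genotypes is therefore given for these genes as a description, with no p-value. Of the 10 genes, 9 had a row among the 12353 genes of the deposited table, and Fzd5 was not analysed here.

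The study sequenced polyadenylated RNA from 3 Nogo-/- (Nogo KO) and 3 Nogo+/+ (wild-type) mice, taken as 3 biological replicates per genotype with 1 library each. The knockout is carried by the whole animal, so every cell type in the muscle lacks the gene. The age, sex and strain of the sequenced mice are not given in the sources used here, and no treatment is named. The libraries are called Sample 4, 5 and 6 (Nogo-/-) and Sample 1, 2 and 3 (Nogo+/+), and values of single libraries follow that order.

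Frizzleds are multi-pass membrane receptors that bind secreted Wnt proteins through a cysteine-rich extracellular domain. With LRP5 or LRP6 as co-receptor they recruit Dishevelled and stop the degradation of beta-catenin, which then acts with TCF/LEF factors on targets such as Axin2. Without these co-receptors, frizzleds also act through the planar cell polarity and calcium branches, to which Wnt5a is commonly assigned. In skeletal muscle, Wnt signals are known for roles in satellite cells, at the neuromuscular junction and in the vasculature.

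Levels are FPKM, fragments per kilobase of transcript, scaled for the fragments mapped per library, as the authors deposited them. Fold changes are differences of log2(FPKM + 1) after quantile normalization, Nogo-/- over Nogo+/+, and understate the difference of genes with low FPKM. Their SE comes from the fit in limma, which borrows variance from all genes, and for the selected genes it is a description and not a test. The libraries held about 13731000 to 14427000 fragments in Nogo-/- muscles and 13466000 to 14413000 in Nogo+/+ muscles, as recovered from the steps of the low values. Rtn4, which encodes Nogo, had 0.423, 0.312 and 0.368 FPKM in Nogo-/- muscles, against 414, 429 and 425 FPKM in Nogo+/+ muscles. Sample 6 stood apart in 8 keratinocyte markers, whose summed level was 228 FPKM there, against 6.35 and 14.0 FPKM in the other Nogo-/- libraries and 5.97 to 16.0 FPKM in Nogo+/+ muscles. In these libraries of whole muscle, fewer cells of a type and less RNA per cell cannot be told apart.

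Fzd9 and Fzd4 differed most between the genotypes, and the sequences just before their start sites are shown to place the genes, although no measurement here was made at these stretches. On GRCm38, Fzd9 is a gene of 1 exon on the minus strand of chromosome 5 (135248938 to 135251230), and Fzd4 has 2 exons on the plus strand of chromosome 7 (89404355 to 89413134). The RefSeq promoter table (GRCm38.p6, 250 bases before to 50 bases after each start) held 6 of the 10 genes: Fzd1, Fzd4, Fzd5, Fzd7, Fzd9 and Axin2. The stretches printed run from the distal end of that window to the last base before the gene model of GENCODE.
Fzd9, chr5:135251231-135251297, minus strand: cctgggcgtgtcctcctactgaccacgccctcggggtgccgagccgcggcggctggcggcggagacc
Fzd4, chr7:89404116-89404354, plus strand: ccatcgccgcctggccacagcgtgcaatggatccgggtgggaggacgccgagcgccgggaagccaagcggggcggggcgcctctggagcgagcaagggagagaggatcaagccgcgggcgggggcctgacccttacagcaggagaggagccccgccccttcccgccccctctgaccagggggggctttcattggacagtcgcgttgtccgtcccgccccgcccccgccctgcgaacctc
Another window from the same table is shown for the one match to a searched motif, with the motif in capitals.
Fzd9, chr5:135251118-135251147, minus strand: cgctccgggacaCACGTGggcggccgagag

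The motifs searched on both strands were the TCF/LEF core CTTTGAT and the canonical E-box CACGTG, which do not overlap one another in any of the 6 windows. The TCF/LEF core was in none of the 6, Axin2 included, and in 3.73% of the 32851 promoters of the table. The E-box was in the Fzd9 window alone and in 7.15% of all promoters, which is a description of letters and not of a bound site. It begins 88 bases before the RefSeq start and 95 bases after the start of the GENCODE gene model, so that the annotations differ on whether it is transcribed. The Fzd9 window was also rich in G and C (78.0%, with 53 CpG), as was that of Fzd4 (72.7%, with 32 CpG). This was not particular to them, since Fzd5 had 75.7% (38 CpG), Axin2 70.0% (31 CpG) and Fzd7 66.7% (24 CpG). The Fzd1 window had 54.0% (16 CpG), and the content of all promoters was not computed.

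Fzd4, the frizzled that also binds Norrin and is known for its role in vascular endothelium, was the member with the largest difference. Its FPKM was 26.8, 26.0 and 22.5 in Nogo-/- muscles, against 9.66, 11.5 and 12.0 in Nogo+/+ muscles. Every Nogo-/- library lay above every Nogo+/+ library, and the lowest Nogo-/- value was well clear of the highest Nogo+/+ value. The mean was 25.1 ± 2.27 FPKM in Nogo-/- muscles and 11.1 ± 1.24 FPKM in Nogo+/+ muscles (SD, n = 3 each), a ratio of 2.27 and a log2 fold change of 1.07 (SE 0.09). These levels rested on 2078 to 2522 fragments per Nogo-/- library and 899 to 1164 per Nogo+/+ library. The log2 fold change lay between 0.98 and 1.12 when any 1 library was left out, with 1.12 without Sample 6.

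**Figure D1:**
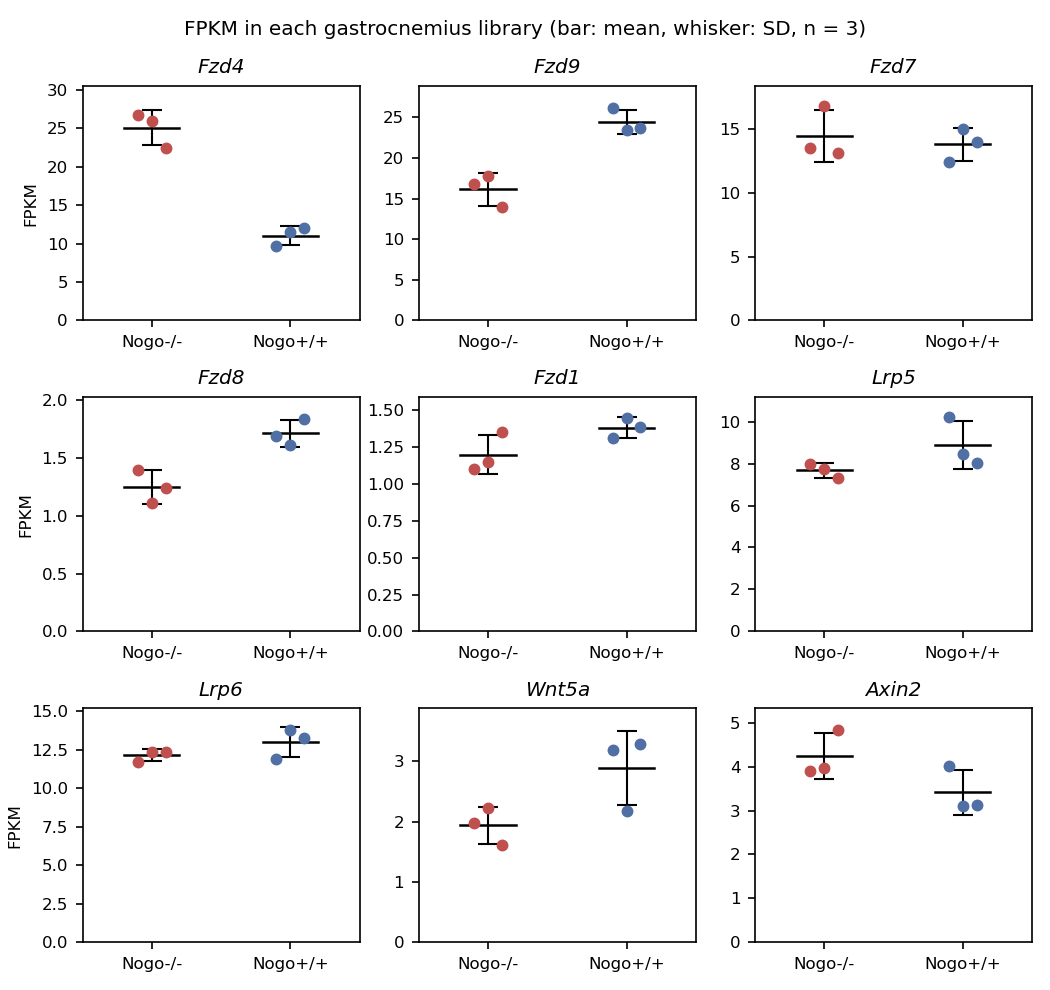
FPKM of the 9 genes with a row (vertical axes, each from 0) in the 3 Nogo-/- and the 3 Nogo+/+ libraries, with points for libraries, bars for means and whiskers for SD (n = 3). The Nogo-/- points lie above the Nogo+/+ points for Fzd4 and below them for Fzd9, Fzd8 and Lrp5, and the groups overlap for the other 5 genes.

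Fzd9, a frizzled described in mice and cultured muscle cells as a receptor at the neuromuscular junction, lay in the opposite direction. It had 16.8, 17.8 and 13.9 FPKM in Nogo-/- muscles, against 26.1, 23.4 and 23.7 FPKM in Nogo+/+ muscles. The groups did not overlap, and Sample 6 was the lowest of the Nogo-/- libraries. Means were 16.1 ± 2.04 FPKM in Nogo-/- muscles and 24.4 ± 1.52 FPKM in Nogo+/+ muscles (SD, n = 3 each), a ratio of 0.662 and a log2 fold change of -0.62 (SE 0.08). Between 436 and 589 fragments stood behind each Nogo-/- value and between 721 and 830 behind each Nogo+/+ value. Leaving out any 1 library gave log2 fold changes from -0.69 to -0.54, with -0.54 without Sample 6.

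The frizzled genes with lower levels leaned the same way as Fzd9. Fzd8, a receptor with a single-exon gene on chromosome 18, had 1.4, 1.11 and 1.24 FPKM in Nogo-/- muscles, against 1.69, 1.61 and 1.84 FPKM in Nogo+/+ muscles. All Nogo-/- values were below all Nogo+/+ values, with a ratio of means of 0.729 and a log2 fold change of -0.31 (SE 0.10). Only 96 to 116 fragments per Nogo-/- library and 130 to 159 per Nogo+/+ library lay behind these values. Fzd1, which couples mainly to beta-catenin, had 1.10, 1.15 and 1.35 FPKM in Nogo-/- muscles and 1.31, 1.45 and 1.39 FPKM in Nogo+/+ muscles. Its groups overlapped through Sample 6, and its log2 fold change was -0.15 (SE 0.11).

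Fzd7, the frizzled through which Wnt7a acts on satellite cells in mice, was nearly level. It had 13.5, 16.8 and 13.1 FPKM in Nogo-/- muscles, against 12.4, 15.0 and 14.0 FPKM in Nogo+/+ muscles. The ranges overlapped, the log2 fold change was 0.01 (SE 0.10), and its sign changed in 2 of the 12 alternatives run. Each value rested on 814 to 1099 fragments in Nogo-/- libraries and 779 to 915 in Nogo+/+ libraries.

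Frizzled genes outside the set can be tested. Fzd2, a receptor that also serves Wnt5a, had 0.963, 1.26 and 1.13 FPKM in Nogo-/- muscles, against 1.5, 1.31 and 1.57 FPKM in Nogo+/+ muscles. The groups did not overlap, but the log2 fold change of -0.25 did not pass limma's test over 12353 genes (adjusted p = 0.276). Fzd6, a frizzled of the planar cell polarity branch, had overlapping groups with 4.6, 4.12 and 4.94 FPKM in Nogo-/- muscles and 4.64, 5.20 and 4.07 FPKM in Nogo+/+ muscles (log2 fold change -0.05, adjusted p = 0.846). Its sign changed in 2 of 12 alternatives. Fzd3 and Fzd10 were not analysed here.

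The 7 frizzled genes with rows were also summed in each library. The sum was 65.1, 68.3 and 58.1 FPKM in Nogo-/- muscles, against 57.4, 59.4 and 58.6 FPKM in Nogo+/+ muscles, so the ranges overlapped through Sample 6. Fzd4 made up 41.1, 38.1 and 38.8% of that sum in Nogo-/- muscles, against 16.8, 19.4 and 20.5% in Nogo+/+ muscles. For Fzd9 the shares were 25.8, 26.1 and 23.8% in Nogo-/- muscles, against 45.6, 39.3 and 40.4% in Nogo+/+ muscles. The most abundant frizzled mRNA was thus Fzd4 in each Nogo-/- library and Fzd9 in each Nogo+/+ library. The ratio of Fzd4 to Fzd9 was 1.60, 1.46 and 1.63 in Nogo-/- muscles and 0.370, 0.493 and 0.507 in Nogo+/+ muscles. Both genes were chosen for their opposite positions, so the choice bore on their shares and on this ratio. Fzd7 held 22.6 ± 1.95% of the sum in Nogo-/- muscles and 23.6 ± 1.82% in Nogo+/+ muscles (SD, n = 3 each).

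**Figure D2:**
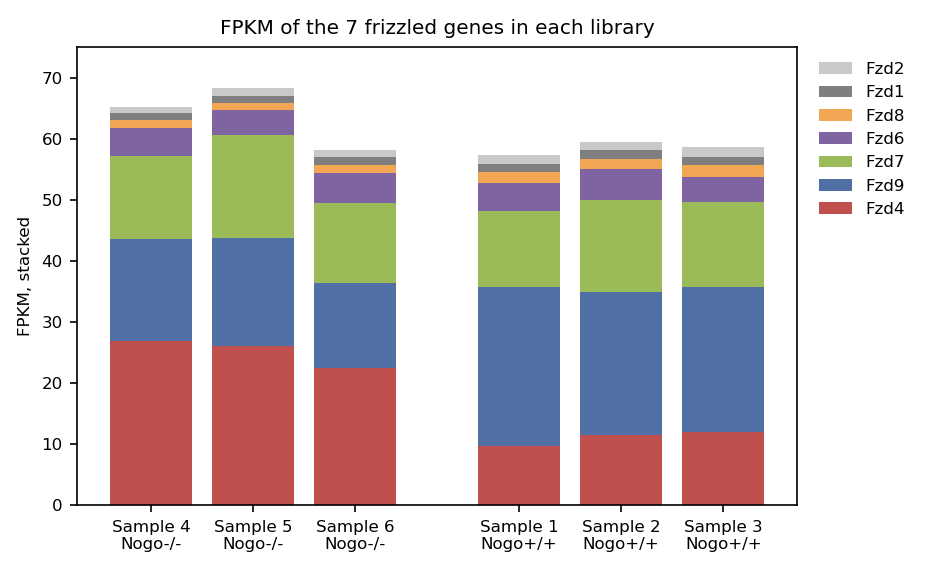
Stacked FPKM of the 7 frizzled genes (vertical axis, from 0) in each of the 6 libraries, Nogo-/- at the left and Nogo+/+ at the right. The Fzd4 segment is the tallest in the 3 Nogo-/- libraries and the Fzd9 segment in the 3 Nogo+/+ libraries, while the whole columns span 58.1 to 68.3 FPKM in Nogo-/- and 57.4 to 59.4 FPKM in Nogo+/+ libraries.

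The co-receptors LRP5 and LRP6 are single-pass receptors that bind Wnt beside a frizzled. Lrp5 had 8.0, 7.72 and 7.29 FPKM in Nogo-/- muscles, against 10.2, 8.45 and 8.03 FPKM in Nogo+/+ muscles. The groups were apart by a narrow margin, since the highest Nogo-/- value of 8.0 FPKM lay just under the lowest Nogo+/+ value of 8.03 FPKM (log2 fold change -0.23, SE 0.09). Without Sample 1, the highest Nogo+/+ library, the log2 fold change of Lrp5 was -0.14. Lrp6 had 11.7, 12.4 and 12.4 FPKM in Nogo-/- muscles and 11.9, 13.8 and 13.3 FPKM in Nogo+/+ muscles, with overlapping groups and a log2 fold change of -0.12 (SE 0.08). The ratio of Lrp6 to Lrp5 averaged 1.59 ± 0.121 in Nogo-/- muscles and 1.48 ± 0.272 in Nogo+/+ muscles (SD, n = 3 each), a difference within the spread of the libraries.

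The 9 frizzled and co-receptor genes were also ordered by FPKM, which are scaled for length. Other influences on levels between genes were not examined, and Fzd9 has 1 annotated transcript but Lrp6 has 6. In Nogo-/- muscles the order of means was Fzd4 (25.1 FPKM), Fzd9 (16.1), Fzd7 (14.5), Lrp6 (12.2), Lrp5 (7.67), Fzd6 (4.55), Fzd8 (1.25), Fzd1 (1.2) and Fzd2 (1.12). Neighbours overlapped in range between Fzd9 and Fzd7 and among Fzd8, Fzd1 and Fzd2, and the other neighbours were apart. In Nogo+/+ muscles it was Fzd9 (24.4 FPKM), Fzd7 (13.8), Lrp6 (13.0), Fzd4 (11.1), Lrp5 (8.89), Fzd6 (4.64), Fzd8 (1.71), Fzd2 (1.46) and Fzd1 (1.38). There the ranges of each pair of neighbours from Fzd7 to Lrp5 overlapped, as did those of Fzd2 and Fzd1. Fzd4 therefore stood first in Nogo-/- muscles and behind Fzd9, Fzd7 and Lrp6 in Nogo+/+ muscles. Over all 6 libraries the order of means was Fzd9, Fzd4, Fzd7, Lrp6, Lrp5, Fzd6, Fzd8, Fzd1 and Fzd2. Its 8 neighbouring pairs were compared with a two-sided exact sign-flip permutation test of the ratio within each library. After adjustment over the pairs, 0 passed. For Fzd9 over Fzd4 and for Fzd4 over Fzd7, the first gene was higher in 3 of 6 libraries, divided by genotype. Both pairs hold genes chosen for their opposite positions, so the choice bore on their result. Before adjustment, 4 pairs were at p = 0.0312 by this exact test, the smallest that 6 libraries allow (adjusted p = 0.0624), with the first gene higher in 6 of 6 libraries. These pairs were Fzd7 over Lrp6, Lrp6 over Lrp5, Lrp5 over Fzd6 and Fzd6 over Fzd8. With only 4 pairs at the smallest p, none could pass the adjustment, so the 0 does not show that their levels were alike.

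Wnt5a, a secreted ligand of the branches that do not use beta-catenin, averaged 1.94 ± 0.316 FPKM in Nogo-/- muscles and 2.89 ± 0.616 FPKM in Nogo+/+ muscles (SD, n = 3 each). Its values were 1.97, 2.23 and 1.61 FPKM in Nogo-/- muscles, against 3.19, 2.18 and 3.29 FPKM in Nogo+/+ muscles. The groups overlapped because Sample 2 of the Nogo+/+ libraries, at 2.18 FPKM, fell within the Nogo-/- range. The log2 fold change was -0.44 (SE 0.14) and lay between -0.57 and -0.36 when any 1 library was left out. Axin2, a scaffold of the destruction complex and a widely used target of beta-catenin signaling, had 3.91, 3.96 and 4.84 FPKM in Nogo-/- muscles, against 4.01, 3.11 and 3.12 FPKM in Nogo+/+ muscles. Sample 1 lay within the Nogo-/- range, and the log2 fold change was 0.22 (SE 0.12), or 0.11 without Sample 6.

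By the call that serves as background, an adjusted p under 0.05 in limma, 573 of 12353 genes were called (4.64%), 1.89% higher and 2.75% lower in Nogo-/- muscles. Among the 9 genes, 1 was past this threshold as higher (Fzd4) and 1 as lower (Fzd9), which the choice of the genes fixed. Groups without overlap were found for 1 of the 9 genes as higher, beside 15.9% of all genes, and for 3 of the 9 as lower (Fzd9, Fzd8 and Lrp5), beside 10.0% of all genes.

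The other genes of the Wnt pathway were taken from 11 lists, of whose 131 genes besides the members 89 had a row. Of these 89 genes, 2 rose and 3 fell in Nogo-/- muscles at an adjusted p under 0.05 in limma, against the 4.64% of all genes given above. Their median log2 fold change was -0.05, with 28 above 0 and 61 below 0, and that of all genes was -0.01, with 5919 above 0 and 6434 below 0. At an unadjusted p under 0.05 there were 25 of the 89 genes, beside 2529 of all 12353 genes. The 5 calls were close to the threshold: with 1 library left out, 1 call remained without Sample 5 (Kremen1), 1 without Sample 6 (Tnks2), and 0 without Sample 1, 2, 3 or 4. Without normalization of the FPKM, under which 56.3% of all calls were higher in place of 40.7%, the 2 genes that rose were called and none that fell.

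Among receptors and their partners, 1 of 7 genes besides the members fell and none rose. Kremen1, a receptor for Dickkopf inhibitors that removes LRP6 from the surface, had 14.8, 18.5 and 16.4 FPKM in Nogo-/- muscles, against 20.6, 21.2 and 20.5 FPKM in Nogo+/+ muscles (log2 fold change -0.36, SE 0.08, limma adjusted p = 0.0437). All Nogo-/- libraries were lower. Ryk, an atypical Wnt receptor, was the most abundant receptor gene listed, with 27.4, 28.5 and 29.6 FPKM in Nogo-/- muscles and 31.2, 32.1 and 30.9 FPKM in Nogo+/+ muscles. Its groups did not overlap, but it did not pass the test (log2 fold change -0.19, adjusted p = 0.110). Tspan12, the partner of Fzd4 in Norrin signaling, differed by -0.12 on the log2 scale (adjusted p = 0.442). For Musk and Lrp4, which form the agrin receptor of the neuromuscular junction, it was 0.18 (adjusted p = 0.420) and 0.13 (adjusted p = 0.591). Adgra2 (-0.20, adjusted p = 0.366) and Reck (-0.07, adjusted p = 0.793), which together serve Wnt7 signals in brain endothelium of mice, had log2 fold changes below 0 that did not pass.

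None of 8 ligand and secretion genes besides Wnt5a passed the test, 2 of them having an unadjusted p under 0.05. Wnt4 was the most abundant ligand, with 8.10, 9.0 and 8.48 FPKM in Nogo-/- muscles and 10, 9.28 and 9.70 FPKM in Nogo+/+ muscles. Wnt4 (log2 fold change -0.21, adjusted p = 0.125) and Wnt9a (-0.23, adjusted p = 0.146) had groups that did not overlap, both lower in Nogo-/- muscles. The groups of Wnt10b did not overlap either, in the other direction, with 1.26, 0.792 and 0.873 FPKM in Nogo-/- muscles and 0.761, 0.671 and 0.752 FPKM in Nogo+/+ muscles. Wnt11 (0.12), Wnt10b (0.15), Wnt16 (0.20) and Wnt5b (-0.13) had adjusted p from 0.542 to 0.691. Values were also close between genotypes for Porcn, the acyltransferase of Wnt proteins (-0.06, adjusted p = 0.728), and for their carrier Wls (-0.09, adjusted p = 0.579). Ndp, which encodes Norrin, was not analysed here.

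**Figure D3:**
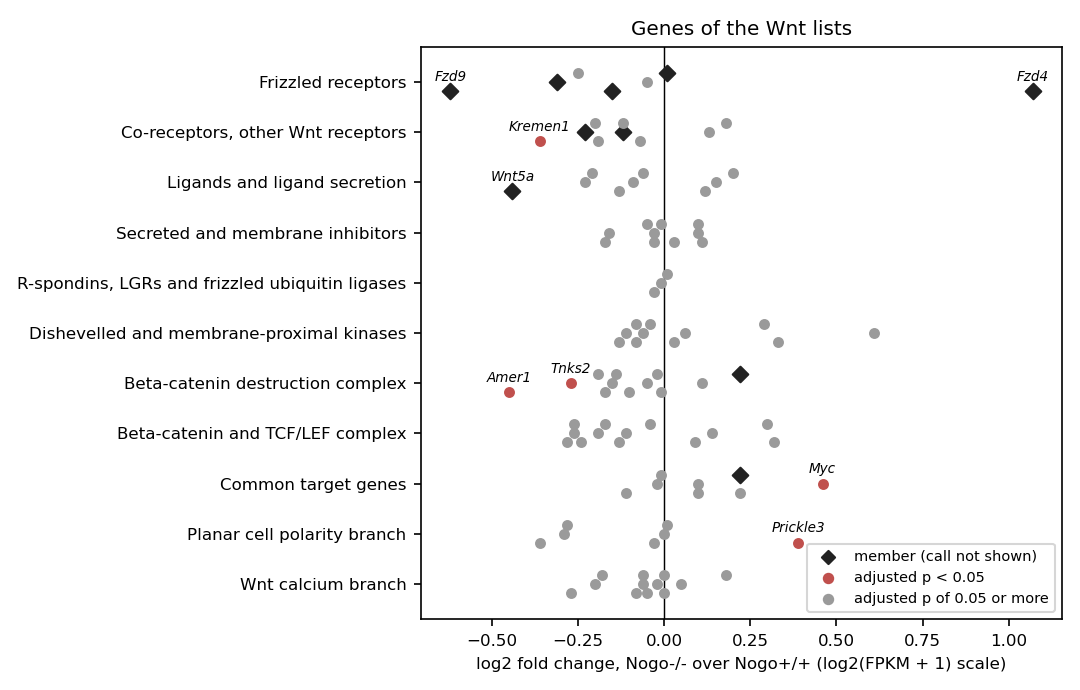
Log2 fold change (horizontal axis, Nogo-/- over Nogo+/+) of each gene with a row in the 11 Wnt lists (vertical axis), with members as black diamonds, whose calls are not shown because the comparison chose them, genes at an adjusted p under 0.05 in red and other genes in gray. Most genes lie near 0, Fzd4 (1.07) and Fzd9 (-0.62) lie farthest among the receptors, and 5 genes besides the members are red.

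Further down the pathway, 4 of the 5 calls lay in 3 lists. In the destruction complex, 2 of 11 genes besides Axin2 fell. Amer1, a membrane scaffold for APC, had 2.48, 1.93 and 2.19 FPKM in Nogo-/- muscles, against 3.20, 3.01 and 3.52 FPKM in Nogo+/+ muscles (log2 fold change -0.45, SE 0.09, limma adjusted p = 0.0338). Tnks2, a tankyrase that marks axins for degradation, had 32.1, 34.1 and 35.6 FPKM in Nogo-/- muscles, against 38.5, 39.4 and 41.2 FPKM in Nogo+/+ muscles (log2 fold change -0.27, SE 0.06, limma adjusted p = 0.0463). Both were lower in all 3 Nogo-/- libraries. Among common targets, 1 of 7 genes besides Axin2 rose. This was Myc, a growth regulator with many inputs besides Wnt, with 3.08, 3.78 and 3.11 FPKM in Nogo-/- muscles, against 1.8, 2.26 and 2.09 FPKM in Nogo+/+ muscles (log2 fold change 0.46, SE 0.10, limma adjusted p = 0.0458). In the planar cell polarity branch, 1 of 7 genes rose, namely Prickle3, which encodes a cytoplasmic polarity protein. Its levels were 11.9, 11.7 and 13.9 FPKM in Nogo-/- muscles, against 9.18, 8.95 and 8.63 FPKM in Nogo+/+ muscles (log2 fold change 0.39, SE 0.08, limma adjusted p = 0.0390), again with no overlap.

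In the other lists no gene passed. Of 13 genes of the beta-catenin and TCF/LEF complex, 7 had an unadjusted p under 0.05, against the 2529 of 12353 genes given above. Of these 7, 6 were lower in Nogo-/- muscles and 1 was higher. The smallest p belonged to the co-repressors Tle1 (log2 fold change -0.28, adjusted p = 0.0567) and Tle3, the 1 that was higher (0.30, adjusted p = 0.0832). Among 11 genes of Dishevelled and its kinases, the smallest p belonged to Dvl2, a Dishevelled (0.29, adjusted p = 0.117), and Frat1, an inhibitor of GSK3 (0.33, adjusted p = 0.134). Among 12 genes of the calcium branch they belonged to the NFAT factors Nfatc3 (-0.27, adjusted p = 0.0956) and Nfatc2 (0.18, adjusted p = 0.286). None of 10 inhibitors had an unadjusted p under 0.05, the smallest p being those of Trabd2b, a protease that cleaves Wnt proteins (-0.16, adjusted p = 0.507), and Sfrp2, a secreted frizzled-related protein (-0.17, adjusted p = 0.653). Of the genes that control frizzled turnover, Rspo3 (-0.03), Lgr4 (0.01) and Znrf3 (-0.01) had adjusted p of at least 0.943.

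Cell type markers were set beside some of the members, whose cells of origin were not measured here. Of 10 endothelial markers, all with rows and none at 0, 6 fell in Nogo-/- muscles (Pecam1, Cdh5, Kdr, Tek, Emcn and Cldn5) and none rose. Of all genes, 2.75% were called lower. The median log2 fold change of the markers was -0.38. Tie1 (-0.25), Egfl7 (-0.30), Vwf (-0.18) and Esam (0.02) did not pass, and their groups overlapped. Cldn5, a tight junction protein, differed most of the 10 markers. It had 10.6, 9.61 and 7.94 FPKM in Nogo-/- muscles, against 22, 20 and 20.6 FPKM in Nogo+/+ muscles (log2 fold change -1.13, SE 0.09, limma adjusted p = 0.000308). The count was 3 without Sample 1, 2 without Sample 2, 3 or 6, 5 without Sample 4 or 5, and 3 without a trend in limma, alternatives chosen after seeing the data. The summed level of the 10 markers was 193 to 231 FPKM in Nogo-/- muscles, against 259 to 294 FPKM in Nogo+/+ muscles, so that they and Fzd4 lay in opposite directions. Relative to that sum, Fzd4 had 11.6, 11.3 and 11.7 FPKM per 100 FPKM in Nogo-/- muscles, against 3.29, 4.44 and 4.41 in Nogo+/+ muscles. The groups did not overlap in this ratio, which uses the FPKM on which Fzd4 was selected. Lrp5, in contrast, had 3.36 to 3.78 FPKM per 100 FPKM of endothelial markers in Nogo-/- muscles and 2.95 to 3.47 in Nogo+/+ muscles, and these ranges overlapped. Of 9 markers of smooth muscle and pericytes, 2 fell (Pdgfrb and Acta2), with sums of 181 to 228 FPKM in Nogo-/- muscles and 251 to 260 FPKM in Nogo+/+ muscles. Left-out libraries gave 0 to 2 of these calls, with 0 without Sample 2, 3 or 4 and 1 without Sample 1 or 6. The count was also 0 without a trend in limma, and 1 without normalization or with array weights. The part of these markers in the values of Fzd4 and Lrp5 was not tested.

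**Figure D4:**
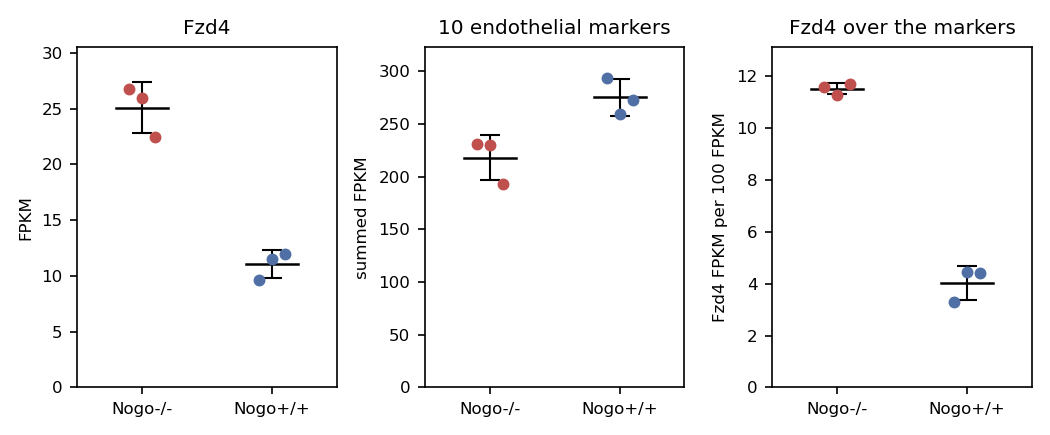
Fzd4 FPKM, the summed FPKM of 10 endothelial markers, and Fzd4 FPKM per 100 FPKM of these markers (vertical axes, each from 0) in the 3 Nogo-/- and the 3 Nogo+/+ libraries, with bars for means and whiskers for SD (n = 3). Nogo-/- libraries are higher for Fzd4, lower for the marker sum (193 to 231 against 259 to 294 FPKM) and higher for the ratio.

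For Fzd9, neither 8 markers of the neuromuscular junction nor 8 of fast fibers included a gene past the threshold. The junction markers summed to 119 to 124 FPKM in Nogo-/- muscles and 107 to 120 FPKM in Nogo+/+ muscles, and Fzd9 had 11.5 to 14.4 FPKM per 100 FPKM of them in Nogo-/- muscles, against 21.3 to 21.9 in Nogo+/+ muscles. The fast-fiber markers summed to 22021 to 23391 FPKM in Nogo-/- muscles and 22880 to 23098 FPKM in Nogo+/+ muscles. Per 100 FPKM of these, Fzd9 had 0.0592 to 0.0808 FPKM in Nogo-/- muscles, against 0.101 to 0.114 in Nogo+/+ muscles. The part of either list in the values of Fzd9 was not tested. For Fzd7, 3 of 6 satellite cell markers had a row, Pax7, Myf5 and Calcr not being among them, and summed to 11.5 to 12.5 FPKM in Nogo-/- muscles and 9.45 to 10.6 FPKM in Nogo+/+ muscles. These sums did not overlap, being higher in Nogo-/- muscles. None of the 3 genes passed limma's test, however, and the groups of each overlapped: Cdh15 (adjusted p = 0.391), Fgfr4 (adjusted p = 0.757) and Chrdl2 (adjusted p = 0.433). Fzd7 had 108 to 143 FPKM per 100 FPKM of the satellite cell markers in Nogo-/- muscles and 126 to 159 in Nogo+/+ muscles, and these ranges overlapped. Of 9 fibroblast markers none passed, with sums of 471 to 710 FPKM in Nogo-/- muscles and 544 to 580 FPKM in Nogo+/+ muscles. Relative to them, Wnt5a had 0.277 to 0.398 FPKM per 100 FPKM in Nogo-/- muscles, against 0.400 to 0.599 in Nogo+/+ muscles. These ranges were barely apart, and the FPKM of Wnt5a alone overlapped between genotypes. Fzd8 had 0.197 to 0.262 per 100 FPKM of the fibroblast markers in Nogo-/- muscles, against 0.291 to 0.335 in Nogo+/+ muscles. These pairs of a gene with a marker list were chosen after the values were seen. The ratios also use the FPKM on which the members were selected, so they are a description and not a test.

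Genes whose levels ran most like those of Fzd9 and Fzd4 were sought by Pearson's r of the normalized log2 values over the 6 libraries. The search covered 6942 protein-coding genes with a mean of at least 5 FPKM, with predicted and unnamed genes left out. For Fzd9 these were Rab11fip5 (r = 0.9969), Tmem140 (r = 0.9939) and Lrrc14b (r = 0.9937), and 98 genes had r above 0.95. For Fzd4 they were Pik3c3 (r = 0.9966), Por (r = 0.9929) and Timp3 (r = 0.9918), and 97 genes had r above 0.95. The 6 points share the gap between genotypes, so r is a description with no p. Por averaged 13.1 FPKM in Nogo-/- muscles and 7.73 FPKM in Nogo+/+ muscles, and Timp3 43.0 FPKM in Nogo-/- muscles and 23.7 FPKM in Nogo+/+ muscles. Tmem140, like Fzd9, was lower, with 14.1 FPKM in Nogo-/- muscles and 19.4 FPKM in Nogo+/+ muscles. A high r did not require a difference of like size. Lrrc14b had 58.3 FPKM in Nogo-/- and 62.5 FPKM in Nogo+/+ muscles, Rab11fip5 11.2 and 14.2 FPKM, and Pik3c3 6.81 and 5.39 FPKM.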

How the data were processed

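RNA from the gastrocnemius of 3 Nogo-/- and 3 Nogo+/+ mice was sequenced from stranded mRNA libraries. The submitters' processing notes name CASAVA 1.8.2, cutadapt 1.4.2, STAR 2.6.1, Cufflinks 2.2.1 and GRCm38.p6. The authors deposited FPKM for 12353 genes, each reaching 1 FPKM in some library. The groups of the columns were taken from the study's own headings, which give no replicate number. A total of 6 further columns of normalized log2 values were not used. Tests made for counts were not used, because FPKM are scaled values. Depth was recovered from genes with a single transcript, for which 95.4 to 97.3% of low values lay within 0.1 of a whole fragment (20% by chance). FPKM were quantile-normalized, put on the log2(FPKM + 1) scale and compared in R 4.3.3 with limma 3.58.1 (mean-variance trend, no covariates, all 6 libraries), adjusting p over the 12353 genes by Benjamini and Hochberg, at a threshold of 0.05. The procedure was tested on simulated data with known changes, but its power for small differences is not given here. Python 3.11.15, NumPy 2.4.6, pandas 2.3.3 and matplotlib 3.10.9 handled tables and figures. Symbols (12342 of 12353 matched) and coordinates came from GENCODE M21, and promoters from RefSeq.

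The members, the 11 Wnt lists and the 11 cell type lists were chosen with earlier results of these data known. Named genes were every member, every other frizzled, receptor or ligand with a row, the other Wnt genes past the threshold, up to 2 with the smallest p in lists without a call, the 3 most like Fzd9 and Fzd4, and Rtn4. Alternatives were no normalization, median scaling, a pseudocount of 0.1, genes averaging 1 FPKM or more, array weights, no trend, and each library left out.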

Additional observations from a re-analysis of the deposited data

How the results depend on the processing

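The directions of Fzd4, Fzd9, Fzd8, Fzd1, Wnt5a, Lrp5, Lrp6 and Axin2 were the same in the 12 alternatives run, and those of Fzd7 and Fzd6 were the same in 10 of 12. The alternatives reuse the FPKM on which the members were selected, so the kept directions of members are a description and not a test. With a pseudocount of 0.1 the log2 fold change of Fzd8 was -0.49 and that of Fzd1 -0.24, since both have low FPKM. The count of Wnt genes called besides the members was 5 (2 higher, 3 lower). It was 2 (2 higher, 0 lower) without normalization, 1 (0 higher, 1 lower) without a trend, and 0 to 1 with 1 library left out (0 to 0 higher, 0 to 1 lower). Over all genes, 573 calls (233 higher, 340 lower) became 188 to 434 (83 to 196 higher, 105 to 238 lower) with 1 library left out, where fewer samples enter the fit. The level order had 0 pairs past adjustment under each of its alternatives, and 5 libraries allow no exact p below 0.0625. No paired analysis was possible because the columns used carry no replicate number. Genes near 1 FPKM, such as Fzd1 and Fzd8, rest on few fragments.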

Other observations

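The remaining cell type lists had no gene past the limma threshold, and no member was set against them. Summed over 8 adipocyte markers, the level was 482 to 927 FPKM in Nogo-/- muscles and 417 to 502 FPKM in Nogo+/+ muscles, with a median log2 fold change of 0.57. The 9 macrophage and leukocyte markers summed to 54.8 to 85.8 FPKM in Nogo-/- muscles and 55.8 to 79.3 FPKM in Nogo+/+ muscles. For 8 Schwann cell markers the sums were 257 to 317 FPKM in Nogo-/- muscles and 246 to 316 FPKM in Nogo+/+ muscles, and for 7 slow-fiber markers 2129 to 2303 FPKM in Nogo-/- muscles and 2200 to 2401 FPKM in Nogo+/+ muscles. Of the 8 keratinocyte markers, Krt5, Krt14, Krt1 and Dsg1a were listed at 0 in at least 1 library. Among Wnt genes, Frat2, which encodes an inhibitor of GSK3, spread widely between Nogo-/- libraries (10.6, 23.2 and 9.97 FPKM), against 8.04, 8.59 and 8.20 FPKM in Nogo+/+ muscles. Its groups did not overlap, but it did not pass limma's test (log2 fold change 0.61, adjusted p = 0.229). Frat2 was named after its values were seen.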
